A study of Rattus norvegicus with 6 samples.

Results

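Kcna4 and 7 other potassium channel genes of the rat kidney (Kcnq1, Kcnj10, Kcnj15, Kcnj16, Kcnk1, Kcnk5 and Kcnma1) were followed in renal cortex of rats dosed with sulfone bis(p-chlorophenyl), in which a sulfone group joins a pair of chlorinated benzene rings. All array probes whose accession matched 1 of these 8 genes were taken, which gave 16 of 61537 probes. Kcna4 was chosen because its probe was 1 of the 3 that passed an adjusted p of 0.05 between treated and vehicle cortex (2 lower, 0.00492% of tested probes, and 1 higher, 0.00246%, the others being in Nabp1 and Dhcr7), and the other 7 were chosen with those results known. Their group differences are therefore given as descriptions, without a test. The 3 treated rats received 250 mg/kg/day of the sulfone for 4 weeks, and the 3 vehicle rats received corn oil for 4 weeks. All were male Sprague-Dawley rats, 5 weeks old when bought, and each animal's cortex was hybridised alone to a 1-colour Agilent array.

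Potassium channels set the membrane voltage that drives transport along the nephron. Channels in the basolateral membrane return the potassium that the sodium pump carries in, channels in the apical membrane of the proximal tubule hold the voltage during sodium-coupled uptake, and channels in the apical membrane of the distal nephron secrete potassium into urine. Voltage-gated channels open on depolarisation, inward rectifiers and tandem-pore leak channels carry the resting current, and the large-conductance channel encoded by Kcnma1 opens with calcium and voltage.

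Levels below are log2 of the processed signal relative to the array's 75th percentile, so 0 is the 75th percentile of that array, and a level of 1 probe cannot be set against that of another. The scanner software marks each probe as well above background or not. Of the 16 probes, 11 were well above background on all 6 arrays, 3 on none, and 13, which cover all 8 genes, entered the fit over 40643 probes, which asks for that mark on every array of 1 group or the other. Between 66.1% and 68.2% of probes were well above background on an array. The tissue carried markers of cortex, with 10 of 10 proximal tubule, 6 of 6 podocyte and 7 of 7 thick limb genes tested, and also those of medulla (6 of 6) and liver (9 of 9). The summed signal of the medulla list did not overlap between groups, at 12.1 to 14.7 in treated and 9.16 to 11.4 in vehicle arrays (multiples of the 75th percentile), with 2 genes higher and 0 lower without overlap. That of the liver list ranged from 29.3 to 77.0 in treated and from 13.7 to 42.6 in vehicle arrays, with 1 higher and 0 lower. The part of either in the channel differences was not tested. Slide 1 held treated 1 and all 3 vehicle arrays and slide 2 held treated 2 and 3, so a slide difference cannot be told apart from the treated animals on slide 2. For this reason the difference within slide 1, treated 1 minus the mean of the 3 vehicle arrays, is given for each tested member probe and for some of the other genes, with 1 treated array and no error of its own. The plot of differences shows it for every partner gene named.

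The promoter windows of the 3 members whose groups stood farthest apart are shown first, to place these genes in the genome (RefSeq, build GRCr8, 250 bases before to 50 after the listed start). A search for the letters TATAAA, for a GC box (spelled GGGCGG), for an E-box (spelled CACGTG) and for the antioxidant response core (spelled TGACNNNGC) covered both strands, and capitals mark matches. Among 27457 promoter windows of the same length, 14.3%, 34.9%, 6.65% and 12.2% hold these 4 motifs in that order. The Kcna4 window (chr3:114215086-114215385, plus strand) is 41.7% G and C and has no match, and its listed start lies inside the gene's span in the same annotation. The Kcnk5 window (chr15:4171375-4171674, plus strand) is 64.7% G and C, with 4 GC boxes, 1 E-box and 1 antioxidant core, which shares bases with a GC box. The Kcnma1 window (chr15:351675-351974, plus strand) is 78.3% G and C and has 5 GC boxes, some of which share bases. A match is only a stretch of letters, and the median over all windows is 52.3% G and C.
Kcna4: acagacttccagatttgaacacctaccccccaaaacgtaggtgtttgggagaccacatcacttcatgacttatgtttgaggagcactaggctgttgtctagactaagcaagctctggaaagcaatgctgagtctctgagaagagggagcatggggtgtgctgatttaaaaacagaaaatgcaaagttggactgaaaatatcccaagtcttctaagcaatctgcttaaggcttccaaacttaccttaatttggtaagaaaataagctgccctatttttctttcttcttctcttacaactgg
Kcnk5: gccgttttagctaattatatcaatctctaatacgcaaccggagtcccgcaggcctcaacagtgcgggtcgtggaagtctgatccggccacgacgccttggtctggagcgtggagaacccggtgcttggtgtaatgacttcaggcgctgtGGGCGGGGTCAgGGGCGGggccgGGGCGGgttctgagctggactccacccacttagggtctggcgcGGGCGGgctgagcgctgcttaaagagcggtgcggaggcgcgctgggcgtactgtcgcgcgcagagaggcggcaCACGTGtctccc
Kcnma1: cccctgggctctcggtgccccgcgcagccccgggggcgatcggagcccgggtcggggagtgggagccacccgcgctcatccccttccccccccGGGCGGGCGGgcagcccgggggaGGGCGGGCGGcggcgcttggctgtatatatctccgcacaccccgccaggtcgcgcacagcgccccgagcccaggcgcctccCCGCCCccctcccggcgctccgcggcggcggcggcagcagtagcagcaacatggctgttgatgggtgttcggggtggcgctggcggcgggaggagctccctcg

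Kcna4 gave a low signal in vehicle cortex and none well above background in treated cortex. Kcna4 encodes a Shaker-type voltage-gated channel that inactivates quickly, best known from heart and brain. Its only probe (A_44_P224020) had log2 levels of -7.56, -7.62 and -7.62 in treated 1, 2 and 3, against -4.72, -4.96 and -4.95 in vehicle 1, 2 and 3. The groups were far apart and both were tight. On the linear scale, the scanner's background-subtracted brightness was 1.04, 3.63 and 4.31 in the treated arrays and 38.6, 33.1 and 33.4 in the vehicle arrays. It was well above background on 0 of 3 treated and 3 of 3 vehicle arrays, and by the scanner's weaker call, positive and significant, on 1 of 3 treated and 3 of 3 vehicle arrays. Vehicle levels lay only 0.64 to 0.99 log2 units above the floor of their array, the lowest signal still well above background, whereas the treated levels lay 1.83 to 2.20 below it.

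Kcna4 averaged -7.60 ± 0.03 in treated and -4.88 ± 0.14 in vehicle arrays (SD, n = 3 each), a difference of -2.72 (SE 0.09, from the limma fit over all probes). Since the treated value is only an upper limit, the size that the arrays support is at least 1.64-fold lower, the vehicle mean against the treated floors. The difference was -0.71 with all values below the floor set to the floor and -0.41 with another background correction (normexp, which adds an offset of 50). Within slide 1 it was -2.68. The treated SD of 0.03 describes signals at the bottom of the scale: in treated 1 the processed signal of 5.83 exceeded the background-subtracted signal of 1.04. Among tested probes, 206 were above background on all 3 vehicle arrays and on no treated array, and 40 of these, Kcna4 included, had a bound at least as large. The opposite pattern, above background on all 3 treated arrays and on no vehicle array, was seen for 37 probes. In whole tissue, fewer cells of a type and less RNA per cell cannot be told apart.

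**Figure D1:**
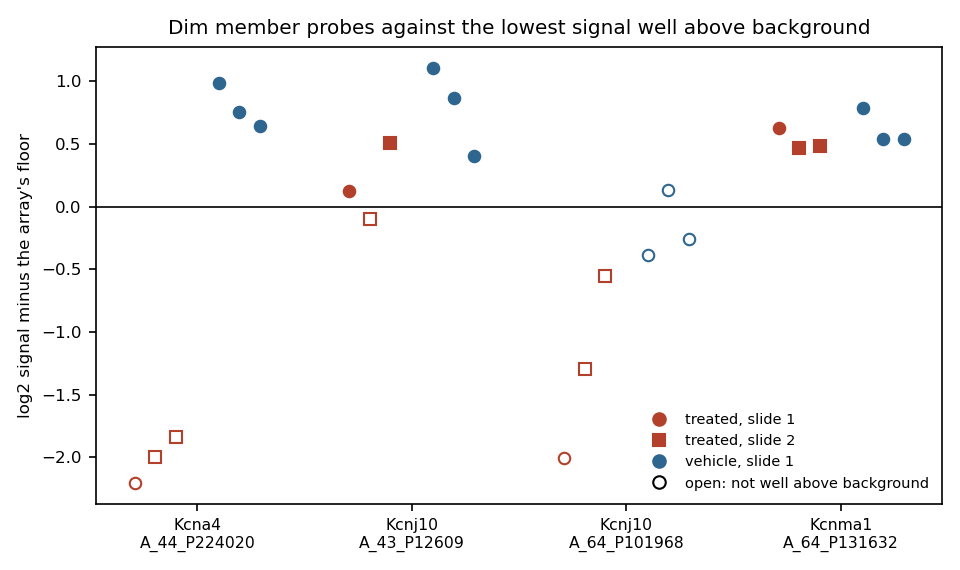
Log2 signal of 4 dim probes (Kcna4, both Kcnj10 probes and the dimmer tested Kcnma1 probe) minus the floor of the same array, the lowest signal well above background, for each treated (red, left) and vehicle (blue, right) array. Points are single arrays, squares are slide 2 and open points are not well above background. Kcna4 lies 1.83 to 2.20 below the floor in treated cortex and 0.64 to 0.99 above it in vehicle cortex.

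None of the measured relatives and partners of Kcna4 named here passed the test. Of the Shaker-type subunits that can assemble with Kcna4, Kcna1 and Kcna3 were well above background on 0 of 6 arrays, Kcna2 on 1 treated array and Kcna5 on 2 treated and 1 vehicle arrays. Kcna6 was measured on all arrays, at -3.45, -3.68 and -3.64 in treated and -3.09, -3.48 and -3.44 in vehicle cortex, with groups that overlapped (difference -0.25, SE 0.13, limma adjusted p = 0.33), and so did its other 2 tested probes. The cytoplasmic beta subunits Kcnab1 (-0.17, SE 0.12, limma adjusted p = 0.45) and Kcnab2 (0.07, SE 0.21, limma adjusted p = 0.87) did not pass either. Kcnab3 was above background on 2 treated and 1 vehicle arrays and was not tested. The scaffold gene Dlg1, whose product binds the tail of Shaker-type channels, had -2.18, -2.05 and -2.21 in treated and -1.65, -1.93 and -2.04 in vehicle arrays. Those groups did not overlap, but the difference of -0.27 (SE 0.12) did not pass (limma adjusted p = 0.26). Dlg4 was well above background on 0 of 6 arrays.

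Kcnq1 encodes the pore of the slow voltage-gated channel of the proximal tubule brush border. Its 3 probes overlapped between groups and ranked the 6 arrays alike (Pearson's r of 0.95 to 0.98 between pairs of probes over the 6 arrays, as a description). The brightest probe had 3.32, 3.66 and 4.08 in treated and 3.69, 3.40 and 3.25 in vehicle arrays. Treated 3 was the highest of the 6 arrays and treated 1 lay inside the vehicle range. The differences of the 3 probes were 0.24 (SE 0.22), 0.12 (SE 0.20) and 0.18 (SE 0.26), and within slide 1 they were -0.12, -0.18 and -0.23, so their sign rested on the 2 treated arrays of slide 2.

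Kcne1 encodes the small single-pass subunit that joins Kcnq1 and slows its opening, and it was the partner gene with the lowest difference. Its probe had -0.87, -0.83 and -0.67 in treated and 0.68, 0.24 and 0.54 in vehicle cortex. Every treated array lay below every vehicle array. The mean was -0.79 ± 0.10 in treated and 0.49 ± 0.22 in vehicle arrays (SD, n = 3 each), a difference of -1.28 (SE 0.13). It did not pass over all probes (limma adjusted p = 0.064), although it did with normexp (-1.27, limma adjusted p = 0.028), with a trended robust variance (limma adjusted p = 0.027) and without treated 1 (-1.24, limma adjusted p = 0.020). Those settings passed many more probes of the array, 137, 156 and 4235 against 3. Without treated 1, slide and treatment cannot be told apart. Within slide 1 the difference was -1.36. The related subunits went in different directions, with Kcne3 at -0.41 (SE 0.14, limma adjusted p = 0.19) and Kcne2 at 0.43 (SE 0.17, limma adjusted p = 0.23), neither past the threshold. Within slide 1 these were -0.37 and 0.23. Kcne3 had -4.69, -4.71 and -4.77 in treated and -4.58, -4.07 and -4.29 in vehicle arrays, and Kcne2 had -3.64, -3.55 and -3.13 in treated and -4.00, -3.95 and -3.65 in vehicle arrays.

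The inward rectifiers Kcnj10 and Kcnj16 assemble into the main basolateral potassium channel of the distal convoluted tubule, and Kcnj15 encodes a relative in the proximal tubule. Kcnj16 was bright and its groups overlapped, at 4.45, 4.82 and 4.90 in treated and 4.82, 4.67 and 4.59 in vehicle cortex (difference 0.03, SE 0.14). Both Kcnj15 probes overlapped too. The brighter had -0.56, 0.10 and 0.08 in treated and -0.05, -0.02 and -0.44 in vehicle arrays (difference 0.04, SE 0.22), and the dimmer differed by 0.16 (SE 0.22). In each of these 3 probes treated 1 was the lowest of the 6 arrays and treated 3 was above every vehicle array. Kcnj15 and Kcnj16 ran together over the arrays (r of 0.92 and 0.93 for the 2 Kcnj15 probes). Within slide 1 the differences were -0.25 for Kcnj16 and -0.39 and -0.31 for Kcnj15.

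Kcnj10 was dim, and lower in treated cortex on the probe that could be measured. That probe (A_43_P12609) had -5.23, -5.72 and -5.28 in treated arrays, where 2 of 3 were well above background, and -4.60, -4.85 and -5.19 in vehicle arrays, where all 3 were. The groups did not overlap, but treated 1 and vehicle 3 nearly met. The difference was -0.53 (SE 0.20), and -0.35 within slide 1. It shrank to -0.10 with normexp and was -0.37 without treated 2. The other Kcnj10 probe had -7.36, -6.92 and -6.34 in treated and -6.10, -5.59 and -5.85 in vehicle arrays, with 0 of 6 arrays well above background. Genes that work beside these channels in the distal nephron did not pass: the chloride channel subunit gene Bsnd differed by -0.19 (SE 0.10, limma adjusted p = 0.34, with a dimmer probe at -0.24 and no overlap), and the calcium-sensing receptor Casr by 0.04 (SE 0.07, limma adjusted p = 0.80). Kcnj1, the apical secretory channel of the thick limb and collecting duct, had 0.61, 0.65 and 0.43 in treated and 0.76, 0.71 and 0.76 in vehicle arrays, a difference of -0.18 (SE 0.09, limma adjusted p = 0.28), and its second probe overlapped between groups.

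**Figure D2:**
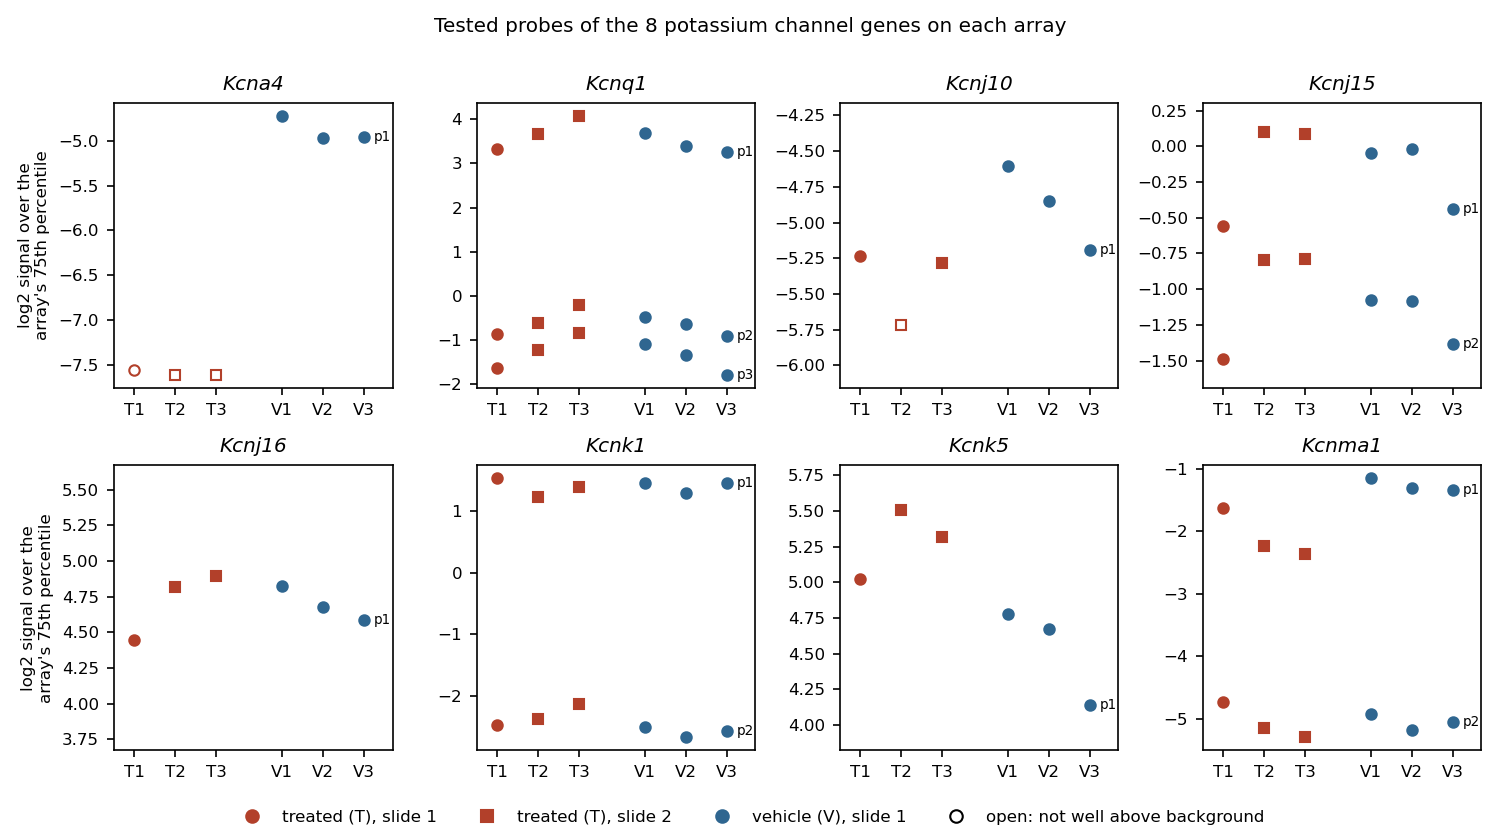
Log2 signal over the array's 75th percentile for the 13 tested probes of the 8 genes, 1 panel per gene, with treated arrays (red) left of vehicle arrays (blue) and probes of a gene numbered by brightness. Squares mark slide 2 and open points are not well above background. Kcna4 and the brighter Kcnma1 probe are lower in all treated arrays and Kcnk5 is higher, while Kcnq1, Kcnj15 and Kcnj16 overlap.

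Kcnk5 was the member with the clearest higher signal in treated cortex. It encodes a leak channel opened by alkaline pH, known in the basolateral membrane of the proximal tubule, where it supports bicarbonate recovery. Its probe had 5.02, 5.51 and 5.32 in treated and 4.78, 4.68 and 4.14 in vehicle arrays. All treated arrays exceeded all vehicle arrays, and treated 1 and vehicle 1 were the closest. The mean was 5.28 ± 0.24 in treated and 4.53 ± 0.34 in vehicle cortex (SD, n = 3 each), a difference of 0.75 (SE 0.21), or 1.68-fold. Within slide 1 it was 0.49, and with 1 array left out it lay between 0.56 and 0.88. The vehicle arrays themselves spread over 0.64.

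The other tandem-pore gene, Kcnk1, encodes a weakly conducting leak channel of proximal tubule and collecting duct, and its 2 probes disagreed. The brighter had 1.54, 1.23 and 1.39 in treated and 1.45, 1.29 and 1.46 in vehicle arrays and did not separate the groups (difference -0.02, SE 0.11, and 0.14 within slide 1). The dimmer had -2.47, -2.37 and -2.12 in treated and -2.50, -2.67 and -2.57 in vehicle arrays, which did not overlap (0.26, SE 0.11, and 0.11 within slide 1). Over the 6 arrays the 2 probes correlated at -0.05. Kcnk6, a close relative, differed by -0.10 (SE 0.12, limma adjusted p = 0.65).

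Kcnma1, the pore of the large-conductance channel that secretes potassium at high flow and also acts in smooth muscle, was lower in treated cortex on its brightest probe only. That probe (A_64_P105078) had -1.63, -2.24 and -2.36 in treated and -1.15, -1.31 and -1.33 in vehicle arrays, without overlap. The mean was -2.08 ± 0.39 in treated and -1.26 ± 0.10 in vehicle cortex (SD, n = 3 each), a difference of -0.81 (SE 0.20), or 0.57-fold. Treated 1, on the slide of the vehicle arrays, showed the smallest change, -0.37. The next probe (A_64_P131632), near the floor, had -4.74, -5.15 and -5.30 in treated and -4.92, -5.18 and -5.06 in vehicle arrays and overlapped (-0.01, SE 0.16, and 0.32 within slide 1). The remaining 2 Kcnma1 probes were well above background on 0 of 6 arrays. Which transcripts each probe reads is not given in the files.

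Among the subunits of the large-conductance channel, Kcnmb4 differed in the other direction from the brightest Kcnma1 probe, with -3.52, -2.99 and -3.03 in treated and -3.78, -4.00 and -3.81 in vehicle arrays (0.68, SE 0.16, and 0.34 within slide 1). The groups did not overlap, yet the difference did not pass over all probes (limma adjusted p = 0.13), except without treated 1 (limma adjusted p = 0.016). Without that array 4235 probes passed, and slide and treatment cannot be told apart. Kcnmb1, the smooth muscle subunit (0.32, SE 0.28, limma adjusted p = 0.53), Kcnmb2 (0.00048, SE 0.12, limma adjusted p = 0.998), Kcnmb3 (-0.59, SE 0.30, limma adjusted p = 0.32) and the leucine-rich subunit Lrrc26 (-0.37, SE 0.15, limma adjusted p = 0.25) overlapped between groups. Kcnmb3 was above background on 1 treated array only.

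**Figure D3:**
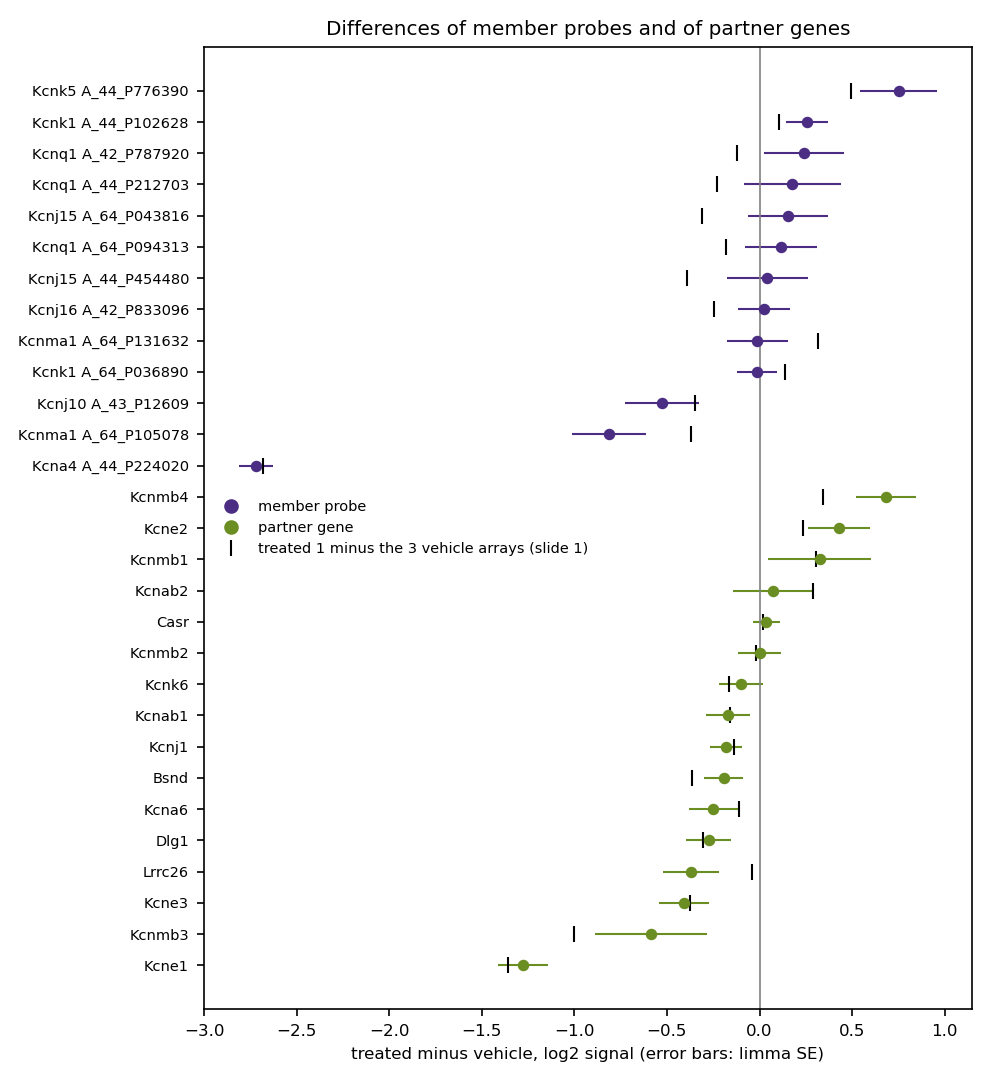
Treated minus vehicle difference in log2 signal for the 13 tested member probes (upper block) and 16 tested partner genes named in the text (lower block), with the limma SE as error bar. Black ticks give treated 1 minus the mean of the 3 vehicle arrays, all on slide 1. Kcna4 (-2.72) and Kcne1 (-1.28) are the lowest of their blocks, and Kcnk5 (0.75) and Kcnmb4 (0.68) the highest.

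Counted by its brightest tested probe, 3 of the 8 members were lower without overlap between groups (Kcna4, Kcnj10 and Kcnma1), where 16.8% of 12118 tested genes were, and 1 was higher (Kcnk5), where 13.9% were. The members' median difference was 0.01, against -0.01 for all tested genes. These counts come from the comparison the members were chosen on and are given only as a description.

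Other potassium channel genes, taken as 112 genes in 4 lists (pore genes, accessory subunits, partners of the members, and potassium pumps and cotransporters), gave 76 tested genes. With limma, 0 of the 76 passed adjusted over all probes, where 1 gene was called lower and 1 higher among all tested genes (0.00825% each way). At an unadjusted p under 0.05, 13 (17.1%) were lower and 8 (10.5%) higher, where 11.3% and 10.1% of all tested genes were. The groups did not overlap for 17 lower and 6 higher genes, 22.4% and 7.89%, against 16.8% and 13.9% of all tested genes. The median difference of the 76 genes was -0.06. The counts include genes that entered the fit through 1 group only, such as Kcne5 (vehicle) and Kcnj11 and Kcnk2 (treated). By list, 9 of 40 pore genes were lower and 5 higher at an unadjusted p under 0.05, as were 4 and 3 of 20 accessory subunits. Of the 11 tested pumps and cotransporters, 0 passed even unadjusted (limma). The sodium pump subunit Atp1b1 (0.08, SE 0.09) and the cotransporter genes Slc12a1 (0.34, SE 0.19) and Slc12a3 (-0.11, SE 0.15) had limma adjusted p-values of 0.63, 0.35 and 0.71, and a dimmer Slc12a3 probe had groups without overlap (-0.38).

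Among pore genes above background on all arrays, with groups that did not overlap and an unadjusted p under 0.05, Kcng2, a silent subunit that modifies other voltage-gated channels, had the highest difference. It had -1.14, -0.53 and -0.73 in treated and -2.20, -2.22 and -1.93 in vehicle arrays (1.32, SE 0.18, limma adjusted p = 0.073), and 0.98 within slide 1. It passed with a trended robust variance (limma adjusted p = 0.042) and without treated 1 (limma adjusted p = 0.011). In these settings 156 and 4235 probes passed, against 3 in the main fit. Without treated 1, slide and treatment cannot be told apart. Of the 4 tested Kcng2 probes, 3 had groups that did not overlap and 1 did not separate them. Kcnt1, a sodium-activated channel, was next by this rule at 0.39 (SE 0.12, limma adjusted p = 0.18). Without the condition on overlap Kcng1, another silent subunit, came between them at 1.24 (SE 0.48, limma adjusted p = 0.23). That was 1 probe only: the other tested Kcng1 probes differed by 0.11 (SE 0.13) and 0.08 (SE 0.11). Kcns2 had a difference level with that of Kcnt1, at 0.39 (SE 0.19, limma adjusted p = 0.29). It failed the condition on overlap and also the unadjusted threshold, so dropping the former alone would not admit it. Kcng1 and Kcns2 were both named after their values were seen.

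The lowest pore genes by the same rule were Kcna7 (-0.81, SE 0.23), Kcnk12 (-0.71, SE 0.14) and Kcnk13 (-0.60, SE 0.16), with limma adjusted p-values of 0.16, 0.11 and 0.15. Within slide 1 they were -0.49, -0.59 and -0.32. The second Kcnk13 probe overlapped between groups (-0.01, SE 0.24). Kcnk12, a silent tandem-pore subunit, had -2.73, -2.80 and -3.02 in treated and -2.16, -2.35 and -1.91 in vehicle arrays, and its second probe gave groups without overlap as well (-4.25, -4.29 and -4.26 in treated, -3.69, -3.77 and -3.70 in vehicle arrays). Among accessory subunits the same rule gave Kcne1 as the lowest, followed by Kcne4 (-0.45, SE 0.14, limma adjusted p = 0.18, and -0.26 within slide 1) and Kcne3. Kcne5 and Kcnmb3, which were lower than Kcne4, were not above background on every array.

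**Figure D4:**
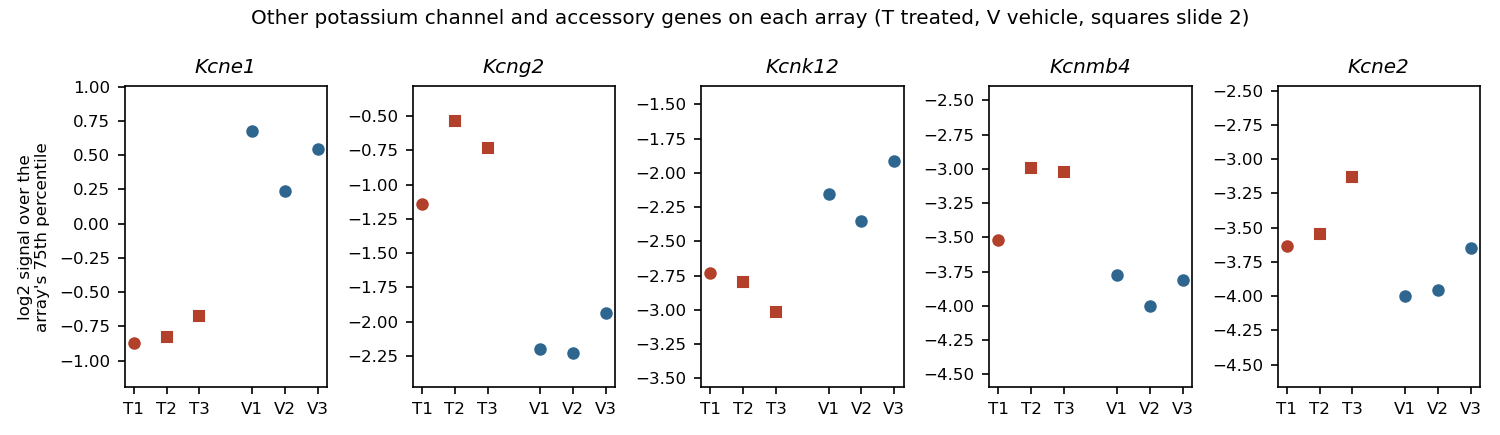
Log2 signal over the array's 75th percentile for the accessory genes Kcne1, Kcnmb4 and Kcne2 and the pore genes Kcng2 and Kcnk12, with treated arrays (red) left of vehicle arrays (blue), squares on slide 2, and axes of equal height. In each panel the treated and vehicle arrays do not overlap, with Kcne1 and Kcnk12 lower and Kcng2, Kcnmb4 and Kcne2 higher in treated cortex.

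Over the 6 arrays, the genes whose profile was most like that of Kcna4 among 12002 genes above background on all vehicle arrays were Hoxd4, Tceal8, Adrb3, Sox4 and Get1 (Pearson's r of 0.992 to 0.997). This is a description of 6 points that fall into 2 groups, so it mostly ranks genes that are low in treated cortex and tight within each group. Hoxd4, a homeobox gene, had -2.13, -2.13 and -2.06 in treated and -1.34, -1.39 and -1.40 in vehicle arrays. Adrb3, a beta-adrenergic receptor, had -5.08, -5.20 and -5.13 in treated and -4.41, -4.44 and -4.46 in vehicle arrays. None of the 5 was a potassium channel gene, and all 5 were well above background on the 3 treated arrays. At r above 0.95, Kcna4 had 170 such genes, Kcnma1 418, and the other members 8 to 67.

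Cell type markers are set beside the members as a description. Among all tested genes, 16.8% were lower and 13.9% higher without overlap. The proximal tubule markers, the site of Kcnq1, Kcnj15 and Kcnk5, had median levels relative to the vehicle mean of -0.19, 0.28 and 0.17 in treated 1, 2 and 3 and of 0.03, -0.02 and -0.01 in vehicle 1, 2 and 3. Treated 1 was the lowest array for these markers, as it was for Kcnj15 and Kcnj16. For Kcnq1 and Kcnk5 the lowest array was vehicle 3. Of 10 proximal tubule markers, 2 were higher and 1 lower without overlap, and their summed signal ranged from 1492 to 1951 in treated and from 1674 to 1733 in vehicle arrays (multiples of the 75th percentile). Markers of principal cells, where Kcnma1 and Kcnk1 are also known, had 0 higher and 2 lower of 7 tested, with sums of 154 to 194 in treated and 196 to 207 in vehicle arrays. Intercalated cell markers had 0 higher and 2 lower of 8, with sums of 152 to 167.2 in treated and 167.2 to 203 in vehicle arrays. Smooth muscle and juxtaglomerular markers had 3 higher and 0 lower of 5, with sums of 32.0 to 39.1 in treated and 26.7 to 37.6 in vehicle arrays, and Cnn1 was well above background on 0 of 6 arrays. For Kcnj10 and Kcnj16, distal convoluted tubule markers had 0 higher and 1 lower of 4, with sums of 26.5 to 33.8 in treated and 31.4 to 36.0 in vehicle arrays, and Pvalb was well above background on 0 of 6 arrays. The part of these cell types in the channel differences was not tested. Peripheral nerve markers, a tissue in which Kcna4 is known, had 0 higher and 1 lower of 7, with sums of 1.31 to 1.41 in treated and 1.20 to 1.38 in vehicle arrays.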

How the data were processed

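Total RNA of 6 renal cortex samples was labelled with Cy3 per the labels' protocols. Per the file headers, spot intensity is linear and was read out by the authors in Feature Extraction 10.7.1.1 (version 10.7 in the submitters' processing notes). A value table the authors deposited for the whole series is also linear intensity, its scaling not given in the sources used here. Its log2 values differed from the processed signal over the 75th percentile by a median of -0.0051 to -0.0013 per array, and its column medians were 0.109, 0.105 and 0.105 for treated 1 to 3 and 0.11, 0.108 and 0.109 for vehicle 1 to 3.

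Values used were log2 of the processed signal minus each array's 75th percentile (910 to 1101) for 61537 probes, control spots removed. Saturation was seen on 0 probes, and 11 with an outlier flag were not fitted. Probes were tested when well above background on all 3 arrays of a group. Accessions were matched to a RefSeq gene table (GRCr8), which gave 28206 probes 1 symbol and 33331 none. A gene was represented by its brightest tested probe.

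The test was limma (version 3.58.1, R 4.3.3), two-sided, with Benjamini-Hochberg adjustment over 40643 probes and a threshold of 0.05. P-values set a group difference against the spread between arrays of a group, moderated over all probes. Among treated arrays that spread also holds any difference between slides. The number of arrays limits the precision. In simulated data with 200 changed probes among 40643, 66% of changes of 1 and 98% of changes of 2 on the log2 scale were found, along with 9 false calls. Changes of 3 and of 4 were each found in 94%. The noise was drawn independently for each probe and array, with no slide effect and no floor. These shares therefore need not hold for the real arrays or for dim probes.

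Members and gene lists were chosen with earlier results of these data known. Named were all members, the partner genes, the 5 genes most like Kcna4 over the arrays, and up to 3 highest and 3 lowest genes of each other list among those above background on all arrays with an unadjusted p under 0.05 and no overlap. A few genes that this rule names are not reported here. Same-numbered animals were not paired by the labels, and the correlations of their deviations were -0.21, 0.01 and -0.16. Normexp, planned on mean spot brightness, was run on the median. Alternatives changed the scaling, the filter, the treatment of dim values, the variance model or the source table, added a block for slide or replicate number, or left out 1 array.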

Additional observations from a re-analysis of the deposited data

How the results depend on the processing

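The count of probes past the adjusted threshold was 3, and was 137 with normexp, 17 with median centring, 156 with a trended robust variance, 1 without a filter, 1 with slide as a fixed block, and 0 when every array had to be above background, with dim values at the floor or with the replicate block. With 1 array left out it ranged from 1 to 4235, the highest without treated 1, when every treated array left is on slide 2 and every vehicle array on slide 1, so that slide and treatment cannot be told apart. It was 14 without vehicle 1 and 1 without treated 2. The Kcna4 difference of -2.72 became -0.41 with normexp and -0.71 with dim values at the floor, and ranged from -2.76 to -2.64 with 1 array left out. Requiring every array above background left Kcna4 without a value. The count of 21 other potassium channel genes at an unadjusted p under 0.05 was 16 with slide as a fixed block and 14 to 27 with 1 array left out. Past the adjusted threshold were 0 of them, but 1 with normexp (Kcne1), 2 with a trended robust variance (Kcne1 and Kcng2) and 11 without treated 1. The replicate block left the other count at 21 and gave 0 adjusted calls. The numbers are not known to pair animals. Kcnk5 and the brightest Kcnma1 probe kept their sign in all alternatives run, at 0.49 to 0.88 and -1.03 to -0.37. Most of these could not have changed it. Their groups did not overlap, so leaving out 1 array cannot turn the sign, and a changed filter or variance model leaves the difference as it was. Kcnj15, Kcnj16, Kcnq1, the brighter Kcnk1 probe and the dimmer Kcnma1 probe had differences of -0.02 to 0.24 in the main fit. These changed sign in 1 to 8 alternatives each. The cause of these changes was not tested. Low signal over background limits Kcna4 and Kcnj10.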

Other observations

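The ATP-sensitive potassium channel, which is built from the pore Kcnj11 and the sulfonylurea receptor Abcc8, had a positive mean difference, treated minus vehicle, on the brightest probe of each gene, but neither passed over all probes. These genes were picked after their values were seen. Kcnj11 had -3.0, -4.06 and -4.21 in treated arrays and -6.11, -5.29 and -4.59 in vehicle arrays, where 2 of 3 were well above background, a difference of 1.58 (SE 0.48, limma adjusted p = 0.17), while its second probe, above background on 2 arrays of each group, differed by -0.02. Abcc8 had 0.60, -0.54 and -0.02 in treated and -3.56, -1.82 and -0.47 in vehicle arrays, a difference of 1.97 (SE 0.78, limma adjusted p = 0.23), and 2.14 on its dimmer probe. Both Abcc8 probes overlapped between groups. Vehicle 1 was the lowest and vehicle 3 the highest vehicle array for both, and treated 1 the highest treated array. Within slide 1 the differences were 2.33 and 2.55. Abcc9, the receptor of the vascular form, differed by 0.27 (SE 0.14, limma adjusted p = 0.34) on its brightest probe. Its dimmer probes differed by -0.11 and -0.09.

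Kcnk2, a leak channel opened by stretch, was also picked after its values were seen. It had -3.08, -3.36 and -3.32 in treated and -5.60, -4.58 and -4.12 in vehicle arrays without overlap, with 2 vehicle arrays well above background (1.51, SE 0.37, limma adjusted p = 0.14, and 1.69 within slide 1). A second Kcnk2 probe, above background on 2 arrays of each group and not tested, overlapped between groups (0.22). Kcne5 was above background on all 3 vehicle arrays and on no treated array, as Kcna4 was, which puts the treated level at least 1.63-fold lower. In the Kcnk10 probe that was above background on no treated array the treated level was lower by at least 1.48-fold. Both probes entered the fit through the vehicle arrays only, so their limma adjusted p-values (0.0996 and 0.12) are no support for a difference. The Kcnj11 and Kcnk2 probes with a p-value entered likewise through the treated arrays only. The other Kcnk10 probe was above background on 2 treated arrays.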
